A study of Mus musculus with 24 samples.

Results

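The response of hind paw skin at day 6 of treatment with an antibody that activates the lymphotoxin β receptor (LTβR) was compared, gene by gene, with the response of the dorsal root ganglia (DRG) that supply the paw. The quantity described is the difference of 2 changes: the log2 fold change from control to day 6 in paw minus the log2 fold change from control to day 6 in DRG. It rests on 12 of the 24 libraries of the series, 3 in each of 4 groups, and on the 14024 of 22609 genes in the deposited counts that were expressed in both tissues. The mice were male C57 animals of 8 to 12 weeks. In the day-6 groups, LTβR agonistic antibody had been injected into the plantar skin of the hind paw in 2 doses of 10 µg, on days 1 and 3 by the sample titles. By the titles, day 6 is dated from the earlier dose, whereas the series' design text can also be read as 6 days after both doses. The control groups had received 10 µg of IgG by the same route, and their tissue was taken 1 day after injection. Day 6 and control thus differed in antibody and in time after injection, which cannot be told apart. No number of injections was recorded for the controls, so the number of injections and the total dose may have differed as well. Paw tissue was a punch biopsy and DRG tissue the L3 to L5 ganglia, both from the injected side. The antibody was given into the paw only, so paw tissue was at the injection site and the ganglia were remote from it.

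LTβR is a receptor of the TNF receptor family on stromal, endothelial and myeloid cells. Its ligands are lymphotoxin αβ and LIGHT, and it signals through NIK, the kinase encoded by Map3k14, to the p52 and RelB transcription factors of the non-canonical NF-κB pathway. In lymphoid organs this pathway sustains chemokine and adhesion molecule expression and the upkeep of dendritic cells. In DRG, satellite glia wrap the somata of the afferent neurons whose endings reach the skin, and the ganglia also hold Schwann cells, vessels and resident macrophages. MHC class II molecules, made chiefly by macrophages, dendritic cells and B cells, present peptides to CD4+ T cells.

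The genes whose change differed between the tissues included MHC class II genes, whose promoters share a compact upstream module with an inverted CCAAT box, the Y box, that B2m also carries. The 110 bases upstream of the RefSeq gene start are shown for 4 genes picked as examples that hold this motif. Of these, H2-Eb1, H2-DMb1 and B2m passed the test of the difference, and H2-Aa lay just outside it. Other class II genes that passed, such as Cd74 and H2-DMa, are not shown. Letters in capitals are CCAAT or its reverse complement ATTGG. Coordinates and sequences are those of RefSeq on GRCm38.p6, whereas the counts were made on mm9. H2-Eb1 lies on the plus strand at chr17:34305757-34305866, H2-DMb1 on the plus strand at chr17:34153081-34153190, H2-Aa on the minus strand at chr17:34287824-34287933 and B2m on the plus strand at chr2:122147577-122147686.
H2-Eb1: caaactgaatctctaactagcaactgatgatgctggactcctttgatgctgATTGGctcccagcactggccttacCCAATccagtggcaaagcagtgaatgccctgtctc
H2-DMb1: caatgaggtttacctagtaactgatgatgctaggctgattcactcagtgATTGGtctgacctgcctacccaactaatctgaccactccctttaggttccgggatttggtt
H2-Aa: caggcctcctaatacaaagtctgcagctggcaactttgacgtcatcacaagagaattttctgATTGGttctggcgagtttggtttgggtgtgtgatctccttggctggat
B2m: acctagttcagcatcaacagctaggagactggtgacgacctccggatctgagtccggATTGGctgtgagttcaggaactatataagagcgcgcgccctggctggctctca
ATTGG begins 59, 61, 48 and 53 bases before the start in H2-Eb1, H2-DMb1, H2-Aa and B2m, and H2-Eb1 holds a CCAAT 35 bases before it as well. Of the 8 MHC class II genes tested, 5 were in the promoter table and 4 of these held the motif on either strand within 110 bases. Among all 27025 genes of the table the share was 23.02%, and among the 30 of 39 genes with the higher change in paw that were in the table it was 23.3%, or 7 genes. The share among the genes with a higher change in paw was thus close to that of all genes, and a match describes these letters only.

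The 6 paw libraries held 24228438 to 41037458 reads in genes and the 6 DRG libraries 21562694 to 34244912. Epidermal and sensory neuron markers followed the labelled tissues: 7 epidermal markers summed to 53580 to 92800 CPM (read counts scaled to a common library size) in paw and 44.8 to 89.7 CPM in DRG, and 8 sensory neuron markers to 6890 to 8010 CPM in DRG and 59.1 to 85.9 CPM in paw. The haemoglobin genes Hba-a1 and Hbb-b1 were at 0 in every library, but other erythroid genes were detected. The 4 blood markers, 2 of them at 0, summed to 18.6 to 46.1 CPM in DRG controls and 6.87 to 16.5 CPM at day 6, without overlap. Of the detected markers, Slc4a1 did not overlap between DRG groups and Alas2 did. In paw the 4 markers summed to 4.48 to 6.90 CPM in controls and 2.24 to 5.01 CPM at day 6. The sums of the longer erythroid list overlapped in both tissues. The part of blood RNA in the results was not tested. The control 1 library of DRG had 31.5% of reads outside genes against 13.2 to 17.4% in the 11 others. Skeletal muscle RNA differed widely between biopsies and will be set beside the results it touches. The labels do not say that replicates are separate animals, and the p-values cover only the spread between these libraries.

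The day-6 change was higher in paw than in DRG for 39 genes, 0.278% of those tested, and lower in paw for 1 gene, Cyp2f2, or 0.00713% (edgeR quasi-likelihood F test of the interaction, Benjamini-Hochberg adjusted p under 0.05 over all 14024 genes). These counts come from a fit without a block for replicates. With the replicate number as a block 9 genes passed, and with a block for each treatment and number 0 passed. By the gene lists, the 39 held 5 MHC class II, 1 MHC class I, 4 macrophage and 5 complement genes, 1 chemokine receptor, 1 lysosomal gene and 1 Schwann cell gene. Every one of the 39 also passed as higher at day 6 in the paw change of the same fit. Their paw groups did not overlap, as held for 8.25% of all genes with day 6 higher and 5.24% with day 6 lower. The 39 were selected for a low p in these same libraries, so their paw calls and separation are not independent support. In DRG their changes lay between -0.90 and 0.31 on the log2 scale, and the control and day-6 libraries overlapped for 32 of them; 3 were higher and 4 lower at day 6 without overlap, as held for 6.84% and 2.84% of all genes. The differences of the 39 ran from 0.84 to 3.13 on the log2 scale, while the median over all genes was -0.01 for the difference, -0.01 for the paw change and 0.01 for the DRG change.

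**Figure D1:**
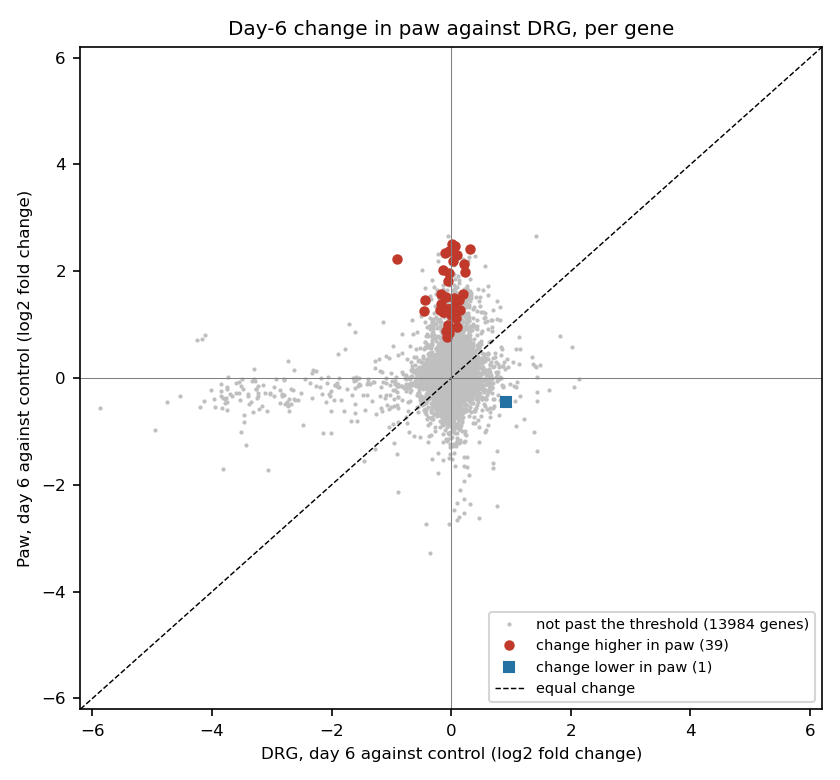
Log2 fold change from control to day 6 in DRG (horizontal) and in paw (vertical) for each of the 14024 genes, 1 point per gene, with the 39 genes higher and the 1 gene lower in paw in colour and the line of equal change dashed. The 39 genes higher in paw lie above 0 on the paw axis and between -0.90 and 0.31 on the DRG axis, Cyp2f2 lies at -0.44 in paw and 0.92 in DRG, and the tail of grey points to the left includes the skeletal muscle genes.

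In paw alone, from the same fit of both tissues, 341 genes (2.43%) rose and 46 (0.328%) fell, 2.76% in all. Rises and falls in paw given below are from this fit, in which paw and DRG share 1 dispersion per gene. With the paw libraries fitted by themselves, 38 genes rose and 0 fell. In DRG alone no gene passed the threshold in either direction (0%): 208 genes had an unadjusted p under 0.05, the smallest adjusted p was 0.691, and DESeq2 called 4 genes, described further on. Of the 387 paw calls, 348 did not pass the test of the difference from DRG, so a call in paw and none in DRG is not by itself shown to be a difference for them. The 302 genes that rose in paw without passing the test of the difference had a median log2 change of 1.10 in paw and 0.06 in DRG. Across all genes the paw and DRG changes had a Pearson correlation of 0.13 and a Spearman correlation of 0.15, given as a description over genes, which are not independent.

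Most MHC class II genes tested rose in paw, and none passed in DRG, where no gene of any kind did. Of 8 tested genes of the list, 5 (H2-DMb1, H2-Ab1, Cd74, H2-DMa and H2-Eb1) had a higher change in paw, and 6 rose in paw taken alone. The list's median log2 change was 0.96 in paw and -0.05 in DRG, and its median difference was 1.01. Over the list, the summed level was 419, 368 and 414 CPM in paw controls and 689, 767 and 845 CPM at day 6, and 458, 441 and 495 CPM and then 441, 434 and 486 CPM in DRG. The paw sums did not overlap and the DRG sums did.
H2-DMb1 encodes a chain of the H2-M complex that loads peptides onto class II molecules. It measured 6.02, 6.06 and 6.66 CPM in the paw controls and 14.7, 14.97 and 15.3 CPM at day 6. In DRG it measured 29.3, 34.0 and 28.2 CPM in controls and 30.7, 33.1 and 31.3 CPM at day 6. The paw groups were far apart and tight, whereas the DRG groups overlapped at a level above that of paw. The difference was 1.20 ± 0.13 (log2, SE, n = 3 per group), a 2.30-fold greater change in paw, with an adjusted p of 0.00914. The DRG change was 0.06 with a 95% interval of -0.14 to 0.25. H2-DMb1 has a close copy, H2-DMb2, with which reads could be shared, and its count is uncertain to that extent.
H2-DMa encodes the partner chain. It went from 4.65, 6.10 and 6.03 CPM to 13.0, 13.6 and 14.7 CPM in paw and from 39.2, 40.9 and 32.2 CPM to 31.8, 39.3 and 38.6 CPM in DRG, a difference of 1.33 ± 0.19 (adjusted p 0.0320). The 2 chains of the loading complex therefore changed by like amounts in paw, and neither DRG group stood apart.

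Cd74, the invariant chain that escorts class II molecules to the endosome, measured 154, 135 and 157 CPM in paw controls and 267, 300 and 322 CPM at day 6. In DRG it measured 174, 167 and 196 CPM and then 168, 161 and 186 CPM. The difference was 1.05 ± 0.14 (adjusted p 0.0299), with a DRG change of -0.06 (95% interval -0.28 to 0.16). DRG controls lay above paw controls and day-6 paw above day-6 DRG, so the order of the tissues turned over.
The chains that form the class II molecule itself behaved alike. H2-Ab1 went from 75.9 ± 6.27 to 139 ± 13.1 CPM in paw and from 61.6 ± 5.31 to 57.6 ± 2.77 CPM in DRG (SD, n = 3), a difference of 0.97 ± 0.13 (adjusted p 0.0299). H2-Eb1 went from 60.9 ± 3.55 to 109 ± 11.4 CPM in paw and from 71.2 ± 5.32 to 69.1 ± 4.47 CPM in DRG, a difference of 0.88 ± 0.13 (adjusted p 0.0325). H2-Aa, with a paw change of 0.92 and a DRG change of 0.04, had a difference of 0.88 ± 0.16 that did not pass (adjusted p 0.0639). Ciita, the coactivator that drives class II transcription, had a difference of 0.93 ± 0.33 that did not pass (adjusted p 0.472). H2-Ob, at 0.12 to 0.32 CPM in paw controls, had a difference of 2.16 ± 0.60 that did not pass (adjusted p 0.242).

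**Figure D2:**
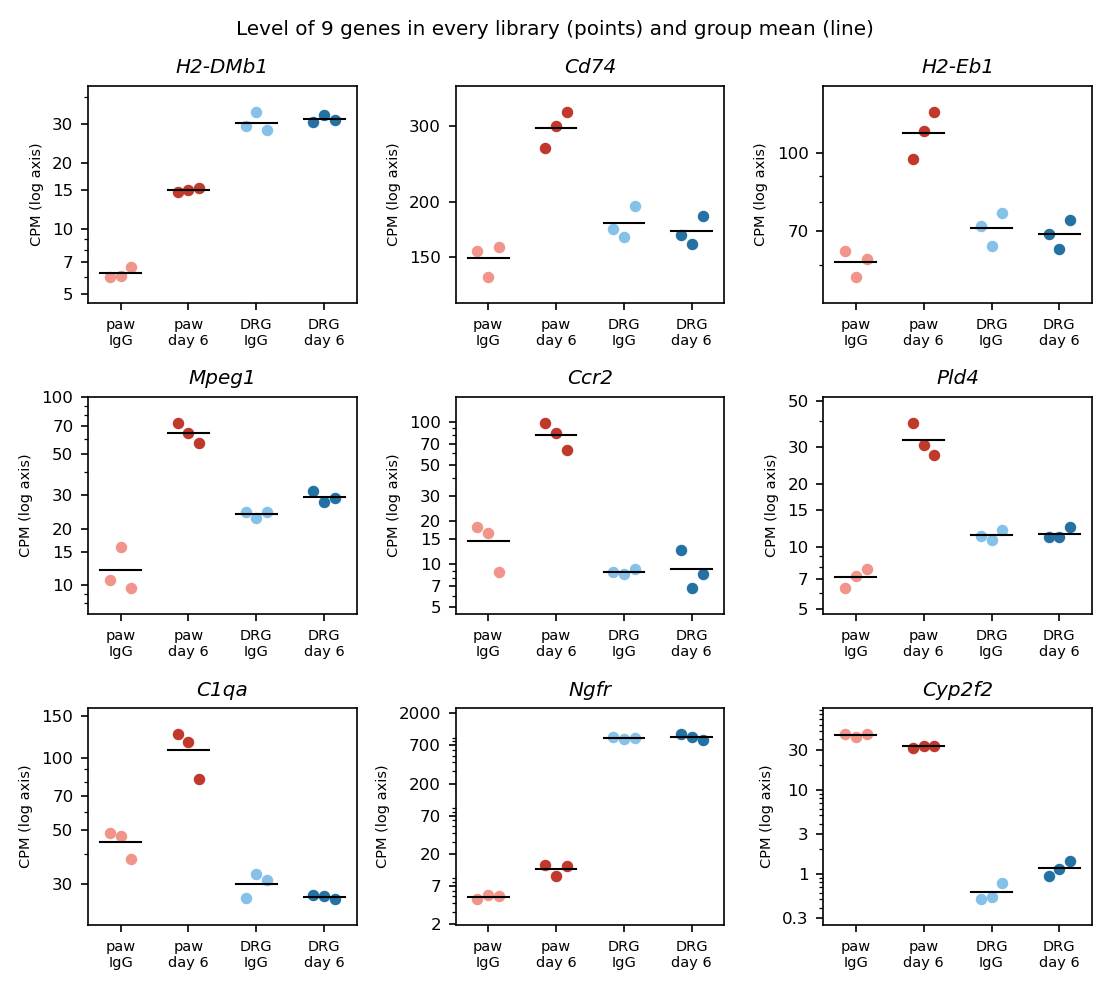
CPM on a log axis for 9 genes in the 4 groups, with 1 point per library and a line at the group mean. In the 8 panels other than Cyp2f2 the day-6 paw libraries lie above every paw control while the DRG groups stay close to each other; in the Cyp2f2 panel the paw libraries are lower and the DRG libraries higher at day 6.

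Macrophage and monocyte genes formed a second group. Of 23 tested genes of the macrophage list, 4 (Mpeg1, Ly86, Cd33 and Emr1) had a higher change in paw by the test of the difference, and 17 rose in paw alone. The list's median log2 change was 1.45 in paw and 0.12 in DRG, with a median difference of 1.36. The summed level of the list was 575, 558 and 387 CPM in paw controls and 1724, 1705 and 1088 CPM at day 6, against 366, 366 and 379 CPM and then 424, 405 and 350 CPM in DRG. Paw control 3 and paw day 6 replicate 3 were the lowest of their groups, and the paw groups stayed apart. A count of transcripts from bulk tissue cannot tell more cells of a type from more RNA per cell.
Pld4, an endolysosomal nuclease that degrades single-stranded nucleic acids in myeloid cells, had the smallest p of all genes. Its paw controls measured 6.36, 7.26 and 7.84 CPM and its day-6 paw libraries 39.2, 30.7 and 27.7 CPM. Its DRG controls measured 11.3, 10.8 and 12.0 CPM and its day-6 DRG libraries 11.1, 11.2 and 12.4 CPM. The paw rose 4.54-fold, the DRG groups overlapped, and the difference was 2.16 ± 0.19 (adjusted p 0.00340). The 95% interval of the DRG change ran from -0.27 to 0.32.
Mpeg1 encodes perforin-2, a pore-forming protein of macrophages. It rose from 10.7, 15.9 and 9.70 CPM to 72.5, 64.5 and 57.2 CPM in paw. In DRG it was at 24.5, 22.7 and 24.5 CPM in controls and 31.8, 27.8 and 29.2 CPM at day 6. The DRG groups did not overlap either, but the DRG change of 0.31 did not pass its test. The difference was 2.11 ± 0.23 (adjusted p 0.00914).
Mgl2, a galactose-binding lectin of dermal dendritic cells and macrophages, moved in opposite directions. It measured 7.19, 5.27 and 5.28 CPM and then 17.0, 15.7 and 16.2 CPM in paw. In DRG it measured 11.5, 13.0 and 11.5 CPM and then 7.75, 10.7 and 8.20 CPM, with every day-6 library below every control. The DRG change of -0.43 did not pass its own test (unadjusted p 0.0175), and the difference was 1.89 ± 0.22 (adjusted p 0.0123).

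Among monocyte genes, Ccr2, the receptor that draws monocytes from blood along CCL2, was at 18.3, 16.6 and 8.87 CPM in paw controls and 97.3, 82.6 and 63.6 CPM at day 6. It was at 8.77, 8.59 and 9.29 CPM and then 12.6, 6.84 and 8.52 CPM in DRG. It rose 5.57-fold in paw, its DRG groups overlapped, and the difference was 2.41 ± 0.40 (adjusted p 0.0398). Ccr2 was the 1 gene of 8 tested chemokine receptors that passed, and 2 of the 8 rose in paw alone.
Cybb, the catalytic subunit of the phagocyte NADPH oxidase, had a difference of 2.49 ± 0.38 (adjusted p 0.0353), from 8.31 ± 2.45 to 47.3 ± 12.2 CPM in paw and 12.9 ± 1.58 to 13.1 ± 3.73 CPM in DRG. Clec12a, an inhibitory lectin receptor of myeloid cells, had a difference of 2.44 ± 0.39 (adjusted p 0.0358). Ly9, a homotypic receptor of leukocytes, had a difference of 2.20 ± 0.34 at low levels in paw (0.63 to 3.09 CPM). None of these myeloid genes passed in DRG, as held for every gene tested.
Ly86, the MD-1 partner of the receptor RP105, was far higher in control DRG than in control paw, at 108 ± 14.8 against 3.68 ± 0.39 CPM. It rose to 13.0 ± 2.95 CPM in paw and was at 104 ± 19.5 CPM in day-6 DRG, a difference of 1.88 ± 0.26 (adjusted p 0.0304). Cd33, a sialic acid-binding receptor, and Emr1, which encodes the F4/80 antigen, had differences of 1.94 ± 0.31 and 1.75 ± 0.30 (adjusted p 0.0398 and 0.0448). Csf1r, the receptor on which macrophages depend, rose 2.53-fold in paw and 1.18-fold in DRG, and its difference of 1.11 ± 0.20 lay just outside the threshold (adjusted p 0.0621). Of the 39 genes with a higher change in paw, 24 had a lower level in paw controls than in DRG controls and 13 still did at day 6.

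Complement genes formed the third group. Of 17 tested genes, 5 (C1qa, C1qb, C1qc, C3 and Cfp) had a higher change in paw and 9 rose in paw alone. Their median log2 change was 0.78 in paw and -0.0039 in DRG. All 3 chains of C1q, the recognition subunit of the classical pathway, passed together.
C1qa measured 48.9, 47.2 and 38.2 CPM in paw controls and 126, 117 and 81.7 CPM at day 6. It measured 26.0, 32.9 and 30.9 CPM and then 26.8, 26.5 and 25.9 CPM in DRG. The paw groups were separate and the DRG groups overlapped, with a difference of 1.46 ± 0.22 (adjusted p 0.0353). C1qb and C1qc had differences of 1.39 ± 0.24 and 1.25 ± 0.21 (adjusted p 0.0448 for each).
C3, the central component that all complement pathways cleave, was the most abundant of the group. It measured 187, 182 and 120 CPM in paw controls and 899, 1080 and 577 CPM at day 6, against 95.4, 83.5 and 52.8 CPM and then 66.7, 74.7 and 85.4 CPM in DRG. It rose 5.23-fold in paw and did not pass in DRG, where no gene did, and the difference was 2.42 ± 0.38 (adjusted p 0.0360). Cfp, properdin, which stabilises the alternative pathway convertase, had a difference of 1.39 ± 0.24 (adjusted p 0.0448).
Cfd, factor D of the alternative pathway and also an abundant product of fat cells, went the other way with a difference of -1.85 ± 0.52 that did not pass (adjusted p 0.280). The other 4 genes of the list that rose in paw, Itgb2, C1ra, C1s and C3ar1, did not pass the test of the difference.

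Genes of the lysosome, class I presentation and nucleic acid sensing supplied further members. Ctss, cathepsin S, which trims the invariant chain from class II molecules, went from 53.7, 60.2 and 43.0 CPM to 169, 168 and 129 CPM in paw. In DRG it went from 18.5, 18.5 and 18.8 CPM to 24.3, 20.6 and 18.9 CPM, a small shift without overlap, and the difference was 1.38 ± 0.20 (adjusted p 0.0325). It was the 1 gene of 14 on the lysosome list to pass. B2m, the light chain of MHC class I, rose from 148 ± 7.91 to 254 ± 17.4 CPM in paw and was at 341 ± 31.0 and 325 ± 33.2 CPM in DRG, a difference of 0.84 ± 0.14 (adjusted p 0.0427). It was the 1 gene of 14 on the class I list to pass, and 5 of the 14 rose in paw. Psmb8, a subunit of the immunoproteasome, had a difference of 1.22 ± 0.28 (adjusted p 0.134).
Unc93b1, which carries nucleic acid-sensing Toll-like receptors to the endosome, passed with a difference of 1.13 ± 0.18 (adjusted p 0.0358). None of the 10 Toll-like receptors tested did, although 6 rose in paw alone and their median difference was 1.56. Tlr9, an endosomal receptor for DNA, came nearest, with 0.86 ± 0.09 and 2.50 ± 0.44 CPM in paw and 1.62 ± 0.08 and 1.55 ± 0.32 CPM in DRG (difference 1.61 ± 0.30, adjusted p 0.0639).

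**Figure D3:**
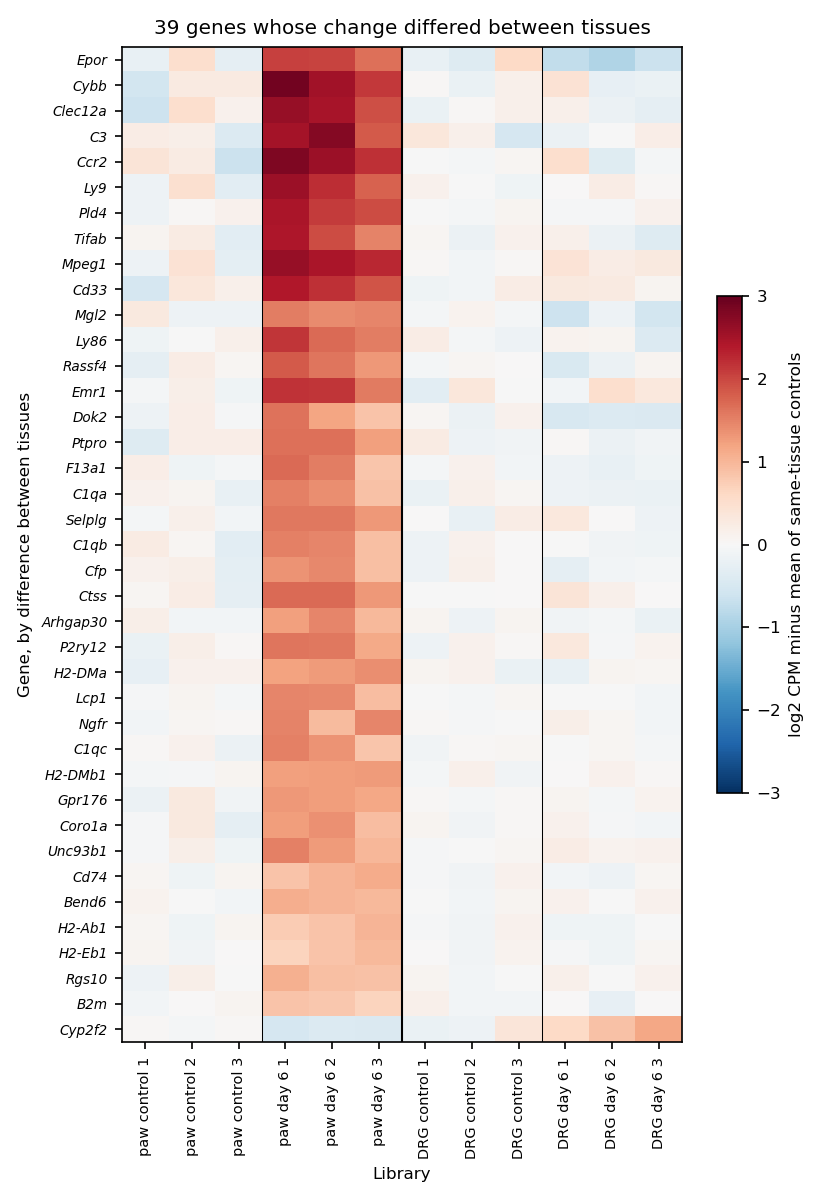
Log2 CPM of 39 of the 40 genes that passed (rows, from the highest difference to the lowest) in the 12 libraries (columns), each minus the mean of the 3 control libraries of the same tissue, on a colour scale from -3 to 3. The 3 day-6 paw columns are red for 38 genes, with replicate 3 the lowest of the 3 in 31 of them, and the DRG columns are mostly near white, with more colour for Epor, Mgl2, Dok2 and Cyp2f2.

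The other genes higher in paw were chosen for mention after their values were seen. They included the leukocyte signalling and cytoskeletal genes Lcp1, Coro1a, Arhgap30, Rassf4, Dok2, Selplg, Rgs10, Ptpro and Tifab, with differences of 0.86 to 2.15. Selplg encodes PSGL-1, the leukocyte ligand of P-selectin, and Lcp1 and Coro1a encode actin-binding proteins of blood cells. F13a1, a transglutaminase of tissue macrophages, P2ry12, an ADP receptor, and Gpr176, an orphan receptor, had differences of 1.56, 1.33 and 1.19. Epor, the erythropoietin receptor, had the largest difference past the threshold, 3.13 ± 0.52, but at 0.12 to 0.25 CPM in paw controls and 0.63 to 0.86 CPM at day 6. The difference for Epor also drew on a DRG change of -0.90.

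Some genes that passed had paw levels far below those of DRG. Ngfr encodes the p75 neurotrophin receptor, made by Schwann cells and some neurons. It measured 4.61, 5.14 and 5.01 CPM in paw controls and 13.9, 9.62 and 13.6 CPM at day 6, and 845 to 1003 CPM in the 6 DRG libraries. Paw groups were separate, DRG groups overlapped, and the difference was 1.28 ± 0.19 (adjusted p 0.0325). Ngfr was the 1 gene of 17 on the Schwann cell list to pass, and the list's median difference was 0.20 (-0.04 with paw control 1 and DRG control 1 left out).
Bend6, at 0.46 ± 0.03 and 1.02 ± 0.05 CPM in paw and 98.7 to 116 CPM over the DRG libraries, had a difference of 1.05 ± 0.14 (adjusted p 0.0398). P2rx3, the ATP-gated channel of nociceptors, rose in paw from 4.01 ± 0.28 to 6.28 ± 0.73 CPM (adjusted p 0.00713) without a shown difference from DRG (0.57 ± 0.14, adjusted p 0.174). It was the 1 gene of 17 on the sensory neuron list to rise in paw, and 0 of the 17 passed the test of the difference. The summed sensory neuron markers overlapped between paw groups, at 59.1 to 85.9 CPM in controls and 64.3 to 84.1 CPM at day 6.

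The receptor's own pathway had smaller changes. Of 10 tested genes of LTβR and non-canonical NF-κB signalling, 2 (Nfkb2 and Relb) rose in paw and 0 passed the test of the difference, with medians of 0.40 in paw, 0.13 in DRG and 0.28 for the difference. Nfkb2, the p52 precursor, measured 28.0, 29.7 and 24.2 CPM in paw controls and 71.4, 53.0 and 52.6 CPM at day 6, and 21.2, 20.8 and 15.7 CPM and then 16.7, 22.4 and 24.2 CPM in DRG. Its paw groups were separate and its DRG groups overlapped, but the difference of 0.97 ± 0.25 did not pass (adjusted p 0.195). Relb, its partner, had a paw change of 0.77 ± 0.13 (adjusted p 0.00934) and a difference of 0.59 ± 0.18 (adjusted p 0.340).
Ltbr itself was at 48.8 ± 8.12 and 45.6 ± 5.28 CPM in paw and 33.5 ± 1.46 and 36.3 ± 2.87 CPM in DRG, with overlapping groups in both and a difference of -0.21 (95% interval -0.60 to 0.18). The adaptor Traf3 and the ubiquitin ligase Birc3, which hold NIK in check, and Map3k14 had differences of 0.32, 0.46 and 0.24 that did not pass. Nfkbie, the IκBε inhibitor of canonical NF-κB, rose 3.18-fold in paw, and its difference of 1.41 ± 0.25 lay just outside the threshold (adjusted p 0.0569).

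Adhesion molecules and the endothelium showed no difference past the threshold, with 0 of 6 and 0 of 16 tested genes. Vcam1, which binds α4 integrins on monocytes and lymphocytes, rose in paw from 3.12, 6.85 and 8.63 CPM to 21.5, 20.0 and 17.3 CPM (adjusted p 0.0185). In DRG it measured 9.47, 9.48 and 16.2 CPM and then 13.5, 13.0 and 14.4 CPM, and the difference of 1.44 ± 0.44 did not pass (adjusted p 0.325). Icam1 had a difference of -0.30 ± 0.42 and Cx3cl1, the ligand of CX3CR1, one of -0.08 ± 0.21 (adjusted p 0.981 and 0.997), and both signs changed when a single library was left out. Sele and Saa3 did not pass the filter on low counts in both tissues and were not tested. Enpp2, autotaxin, which high endothelial venules secrete, rose in paw from 120 ± 25.2 to 214 ± 4.57 CPM, and its difference of 0.78 ± 0.19 did not pass (adjusted p 0.174).
Interferon-γ targets had positive differences in all 16 tested genes, with medians of 0.66 in paw, -0.31 in DRG and 1.00 for the difference, but 0 passed. Irf8, a transcription factor of monocytes and dendritic cells on that list, rose in paw (1.42 ± 0.19, adjusted p 0.00344) and had a difference of 1.18 ± 0.27 (adjusted p 0.137). Clec4a3, a lectin receptor on the dendritic cell list, rose 4.46-fold in paw with a difference of 1.90 ± 0.36 (adjusted p 0.0703). Of 4 tested T and NK cell genes, 0 passed the test of the difference. Il2rg, the shared cytokine receptor chain, rose 3.30-fold in paw, at 1.84 ± 0.67 and 2.85 ± 0.62 CPM in DRG, and its difference of 1.10 ± 0.38 did not pass (adjusted p 0.441).

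**Figure D4:**
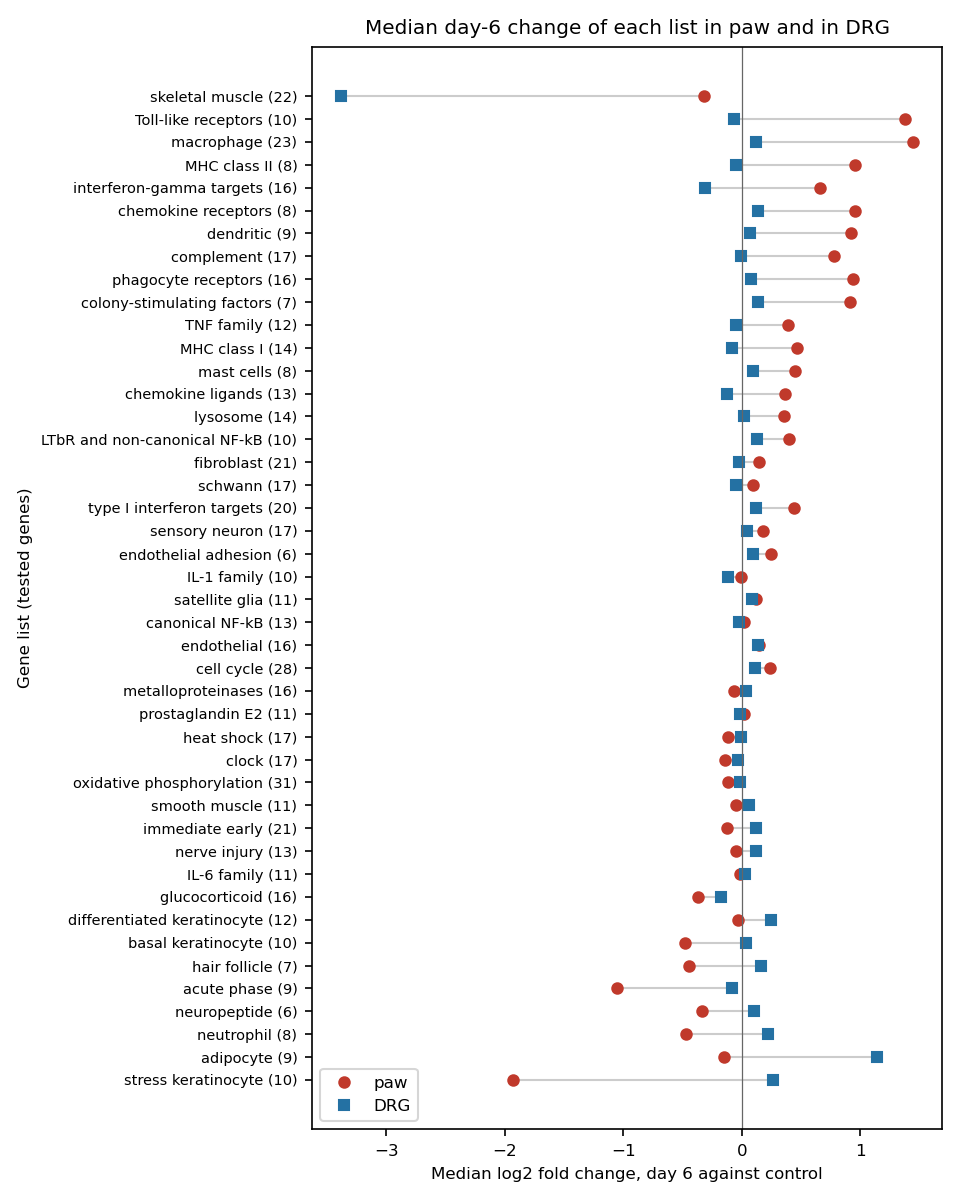
Median log2 fold change from control to day 6 over the tested genes of each list with at least 5 tested genes, in paw (circles) and DRG (squares), joined by a line, with the number of tested genes in brackets. The macrophage, class II and complement medians lie at 1.45, 0.96 and 0.78 in paw and at 0.12, -0.05 and -0.0039 in DRG, and the widest gap, in skeletal muscle, comes from the DRG side.

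Cyp2f2, a cytochrome P450 of epithelia, was the 1 gene with a lower change in paw. It measured 46.0, 42.9 and 45.9 CPM in paw controls and 31.8, 33.8 and 33.4 CPM at day 6. In DRG it measured 0.51, 0.53 and 0.79 CPM and then 0.94, 1.17 and 1.43 CPM. The paw libraries were all lower and the DRG libraries all higher at day 6, at a level in DRG near 1 CPM. The difference was -1.36 ± 0.23 (adjusted p 0.0448), while neither the paw change (-0.44, adjusted p 0.135) nor the DRG change (0.92, adjusted p 1.00) passed by itself. The 7 epidermal markers summed in DRG to 0.0657 to 0.132% of the mean paw level, and the part of carried-over skin RNA in the DRG values of Cyp2f2 was not tested.
Other negative differences did not pass. Adamts1, a secreted metalloproteinase, fell in paw from 85.4, 79.7 and 56.1 CPM to 28.3, 36.2 and 37.0 CPM (adjusted p 0.00703) and was at 20.9 to 28.3 CPM in all DRG libraries (difference -1.21 ± 0.25, adjusted p 0.0912). Arntl, the clock factor BMAL1, was at 7.29, 7.31 and 7.31 CPM in DRG controls and 12.5, 10.4 and 11.2 CPM at day 6, with overlapping paw groups (difference -0.83 ± 0.19, adjusted p 0.140). The hours at which tissue was taken are not given in the sources used here.

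Skeletal muscle, stress keratinocyte and adipocyte lists had wide gaps in median with no gene past the threshold. So did the neutrophil list, with a median difference of -1.15. Of its 8 tested genes, 0 had a positive difference and 0 a positive paw change, and the paw changes ran from -2.52 to -0.01. The 6 tested neuropeptide genes had a median difference of -1.01. Skeletal muscle genes had a median difference of 3.09, with medians of -0.32 in paw and -3.39 in DRG, and 0 of 22 passed. Their summed level in DRG was 102, 5415 and 6187 CPM in controls and 347, 113 and 658 CPM at day 6, and in paw it was 305, 34960 and 31450 CPM in controls and 29340, 7327 and 15220 CPM at day 6. The control libraries of each tissue thus differed by more than an order of magnitude. Actn3, a sarcomere protein of fast fibres, had a difference of 3.46 with an SE of 2.07. With a muscle score in each tissue as a covariate, 40 genes passed, 25 of them among the 40 genes above. The list's median difference was then -0.09. The score was the mean log2 CPM of this same list, so that shrinkage follows from how the score was made and is not a result.
Stress keratinocyte genes had a median difference of -2.57 and 0 of 10 passed. S100a8, a calcium-binding protein of neutrophils and stressed skin on that list, was at 160, 203 and 18.9 CPM in paw controls and 7.03, 57.6 and 1.45 CPM at day 6, with overlapping groups. Hbegf, an epidermal growth factor family ligand, was lower in every day-6 paw library (12.9 to 22.0 against 22.7 to 45.9 CPM), with a difference of -1.08 ± 0.34 (adjusted p 0.362).
Adipocyte genes had a median change of 1.14 in DRG and -0.15 in paw, a median difference of -1.20, and 0 of 9 passed. In DRG 7 of the 9 changes were positive, and they ran from -0.57 to 1.63. Cfd in DRG measured 9.47, 3.28 and 8.00 CPM in controls and 22.2, 28.6 and 13.2 CPM at day 6. Cidec, a lipid droplet protein chosen after its values were seen, measured 1.81, 0.82 and 1.92 CPM and then 3.11, 6.23 and 2.98 CPM. Both were higher at day 6 without overlap, as held in DRG for 6.84% of all genes. The adipocyte list summed to 39.8, 41.1 and 71.4 CPM in DRG controls and 68.7, 94.3 and 58.3 CPM at day 6, so the sums overlapped. The 4 genes that DESeq2 called in DRG were Cfd, Adrb3, Pck1 and Fam64a, with log2 changes of 1.62, 2.15, 2.02 and 1.83 and adjusted p of 0.0137, 0.0137, 0.0137 and 0.00582. Adrb3, the β3 adrenoceptor, and Pck1, a gluconeogenic and glyceroneogenic enzyme, are also known from fat, and Fam64a is a proliferation gene. All 4 stayed at 0.691 or above in edgeR's adjusted p. Cenpf, a kinetochore protein, was at 0.93 ± 0.28 and 2.42 ± 0.44 CPM in DRG (unadjusted p 0.00161), and 0 of 28 cell cycle genes passed the test of the difference.

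How firmly the 40 genes were held varied. With the replicate number as a block 9 genes passed, and with a block for each treatment and number 0 passed (925 at an unadjusted p under 0.05); the labels do not say that paw and DRG of the same number share an animal. Without paw control 3, paw day 6 replicate 1 or 2, or any 1 DRG library, 3 to 9 genes passed, without paw control 1 or 2, 53 or 39, and without paw day 6 replicate 3, 167. Pld4, H2-DMb1 and Mpeg1 passed in all 12 such fits, and Mgl2 in 8. All 40 kept their direction in each of the 12, with adjusted p of at most 0.177, but they had been selected for a low p in these same libraries.

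**Figure D5:**
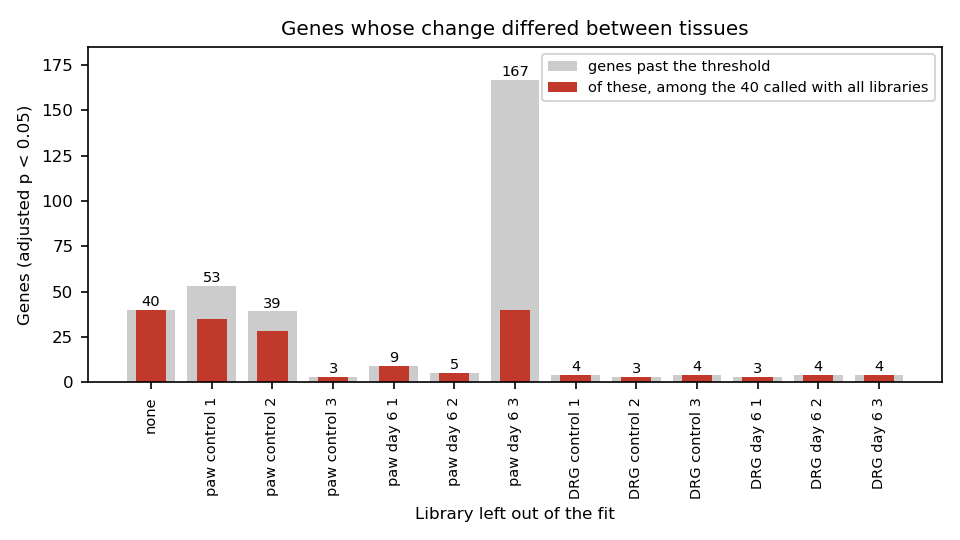
Number of genes past the threshold (vertical) with all 12 libraries and with each library left out (horizontal), with the number shared with the 40 genes in the narrow bars. Counts range from 3 to 167, and most of the 12 fits fall below 10.

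The model gave paw and DRG 1 dispersion per gene, although the median SD between replicates was 0.20 log2 CPM in paw and 0.11 in DRG. With limma voom and a weight for each tissue, 31 genes passed, 25 of them among the 40, and 141 passed in paw. With paw fitted alone, 38 genes passed in paw, all of them among the 387. All 38 were higher at day 6 and 0 were lower.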

How the data were processed

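RNA of paw and DRG (about 500 ng, stranded polyadenylated RNA kit, 50 bp single reads) was sequenced by the authors. The deposited values are raw read counts per gene, made with bcl2fastq, TopHat2 on mm9 and HTSeq per the submitters' processing notes; versions, annotation and strand setting are not given in the sources used here. The 5 HTSeq summary lines were removed, and 0 columns of other samples were present. Genes passing edgeR's filter (minimum count 10) in each tissue were kept. Counts were normalised by TMM and fitted with edgeR 4.0.16 (robust quasi-likelihood, 1 mean per group, R 4.3.3), and the interaction and both tissue changes were tested 2-sided with Benjamini-Hochberg adjustment at 0.05. CPM are TMM-normalised; log2 CPM use a prior count of 2. Differences are log2 with SE = log2 change divided by the square root of F. The fit was tested on simulated data with independent libraries and 1 dispersion per gene for both tissues. That test therefore does not cover unequal spread between the tissues or shared animals. Alternatives used DESeq2 1.42.0 and limma 3.58.1.

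Of 721 symbols in 48 gene lists, 709 matched as written, 6 by synonym and 6 not. Genes were named by rule: among called genes whose log2 CPM averaged 0 or more, the 10 largest changes in each direction and the 10 smallest p; up to 5 members of each list; and LTβR pathway genes. Some genes within the rule were left out of the text, and 1 of the 40 genes past the threshold is not reported here. The members and lists were chosen with earlier results of these data known. Labels do not state that equal replicate numbers share an animal, and no block was used in the main fit. Same-numbered paw and DRG libraries correlated at 0.018 to 0.52 (4 of 6 above 0.1). Differently numbered ones correlated at -0.471 to 0.403 (3 of 12 above 0.1). These correlations do not settle whether animals were shared. If they were, the main fit ignored that pairing, and the block for each treatment and number left 0 genes past the threshold.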

Additional observations from a re-analysis of the deposited data

Results flagged for a closer look

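The results in this part are those whose test of the difference between paw and DRG passed the threshold: 40 genes in all, with 39 higher and 1 lower in paw. In the class II group, the log2 differences were 1.20 for H2-DMb1, 1.33 for H2-DMa, 1.05 for Cd74, 0.97 for H2-Ab1 and 0.88 for H2-Eb1. For the myeloid receptors and effectors they were 2.16 for Pld4, 2.11 for Mpeg1, 1.89 for Mgl2, 1.88 for Ly86, 1.94 for Cd33, 1.75 for Emr1, 2.41 for Ccr2, 2.49 for Cybb, 2.44 for Clec12a and 2.20 for Ly9. For complement they were 1.46 for C1qa, 1.39 for C1qb, 1.25 for C1qc, 2.42 for C3 and 1.39 for Cfp.

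Among signalling and cytoskeletal genes, the differences were 1.33 for Lcp1, 1.75 for Rassf4, 1.36 for Arhgap30, 2.15 for Tifab, 1.44 for Selplg, 0.86 for Rgs10, 1.71 for Dok2, 1.61 for Ptpro and 1.18 for Coro1a. The remaining values were 1.38 for Ctss, 0.84 for B2m, 1.13 for Unc93b1, 1.56 for F13a1, 1.33 for P2ry12, 1.19 for Gpr176, 3.13 for Epor, 1.28 for Ngfr, 1.05 for Bend6 and -1.36 for Cyp2f2.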

How the results depend on the processing

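Of 40 genes whose change differed between tissues, the count stayed within 1.5 times under RLE or upper-quartile scaling, TMM within each tissue, no or a stricter filter on low counts, limma voom and the muscle covariate (31 to 54). It was 242 with DESeq2, 99 with the 18 libraries that add day 1, 9 with the replicate number as a block, 0 with a replicate block for each treatment and number (925 genes at an unadjusted p under 0.05), and 4 with paw control 1 and DRG control 1 left out together, an alternative chosen after seeing the data. Leaving out 1 library gave 3 to 167. In every one of the 24 alternatives the called genes that were tested kept their sign. They had been selected for a low p in these same libraries, so a kept sign is not independent support. The 387 paw calls became 756 with DESeq2, 141 with limma voom, 610 with the muscle covariate, 38 with each tissue fitted alone (also added after seeing the data), and 198 to 536 without 1 library. The 0 DRG calls (208 at an unadjusted p under 0.05) became 4 with DESeq2, stayed 0 without any 1 library, and stayed 0 with the tissue fitted alone (487 at an unadjusted p under 0.05). Among named genes, the difference for Icam1 (-0.30) ran from -0.60 to 0.08 over the fits without 1 library and was positive without paw control 1 (0.0802) and without both control 1 libraries (0.0026); that for Cx3cl1 (-0.08) ran from -0.24 to 0.07 and was positive without paw day 6 replicate 2 (0.0695) and DRG day 6 replicate 1 (0.0091). The causes were not tested. Another scaling moved the median of all genes to between -0.03 and 0.02. Same-numbered libraries correlated best with each other in 7 of 12 cases, and for paw control against day 6 the same-number correlations ran from -0.703 to 0.015. Genes near 1 CPM are limited by depth: under the stricter filter, Adrb3, Bend6, Cyp2f2, Epor, H2-Ob and the B and plasma cell list were not tested and gave no value.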
